A study of Mus musculus with 6 samples.

Results

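Egln3 and its partners in the oxygen-sensing pathway were examined as a group of 9 genes, made up of the prolyl hydroxylases Egln1, Egln2 and Egln3, the transcription factor subunits Hif1a, Epas1 and Arnt, the ubiquitin ligase subunit Vhl and the growth factors Vegfa and Vegfb. Members were all probe sets whose single gene symbol in the platform annotation is one of these names. They numbered 16 probe sets, at least 1 for each of the 9 genes, out of 22690 probe sets on the array. Egln3 was chosen by its difference in signal between the muscles, and the group was proposed with results of this contrast known, so the members' values are given as a description without a test. The study measured superficial masseter, a jaw-closing muscle, with 3 samples, against tibialis anterior, a muscle of the lower hindlimb, with 3 samples. All came from normal adult female C57Bl/6 mice aged 6 months, with no treatment or engineered allele named in the labels. Each sample was read on 1 short-oligonucleotide array. The labels leave unstated how many mice gave the 3 samples of each muscle, so the spread between samples may be technical in part.

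The EGLN enzymes use molecular oxygen to hydroxylate prolines in the alpha subunits of hypoxia-inducible factor (HIF), which are encoded by Hif1a, Epas1 and Hif3a. The hydroxylated subunit is recognised by the VHL protein and degraded. When oxygen is low the subunit persists, pairs with ARNT and binds short DNA elements with the core ACGTG or GCGTG near genes of glycolysis, red cell supply and vessel growth, Vegfa among them. Egln3 and Egln1 are themselves known HIF targets, which closes a feedback loop. In cultured mouse myoblasts EGLN3 is also known to act in muscle differentiation. An array of this kind reads transcript level and carries no information on hydroxylation, HIF protein or oxygen.

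The sequences just before the annotated starts of the 3 hydroxylase genes are shown because Egln3 differed between the muscles and its paralogs showed no such difference. Each holds the 250 bases before the start of transcription, 5′ to 3′ on the strand of the gene, from RefSeq on GRCm38.p6, and capitals mark ACGTG or GCGTG on either strand. Egln3 lies at chr12:54203875-54204124, Egln1 at chr8:124949255-124949504 and Egln2 at chr7:27166803-27167052, all on the minus strand.
Egln3: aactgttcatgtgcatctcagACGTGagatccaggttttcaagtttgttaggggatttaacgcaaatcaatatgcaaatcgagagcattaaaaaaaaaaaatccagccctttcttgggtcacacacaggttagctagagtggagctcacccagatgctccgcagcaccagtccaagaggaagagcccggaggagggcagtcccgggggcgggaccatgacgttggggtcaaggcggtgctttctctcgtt
Egln1: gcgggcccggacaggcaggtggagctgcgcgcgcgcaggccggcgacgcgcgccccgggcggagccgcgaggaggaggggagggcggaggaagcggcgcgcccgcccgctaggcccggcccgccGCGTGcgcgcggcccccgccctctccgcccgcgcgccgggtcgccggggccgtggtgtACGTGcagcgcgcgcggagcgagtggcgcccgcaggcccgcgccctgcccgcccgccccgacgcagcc
Egln2: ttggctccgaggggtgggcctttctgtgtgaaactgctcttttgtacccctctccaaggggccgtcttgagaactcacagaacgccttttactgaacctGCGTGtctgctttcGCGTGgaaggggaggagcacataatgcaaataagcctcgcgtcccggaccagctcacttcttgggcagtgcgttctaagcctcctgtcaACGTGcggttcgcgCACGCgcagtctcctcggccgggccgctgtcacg
The Egln3 window held 1 ACGTG, whose first base lies 229 bases before the start, and 0 GCGTG. That of Egln1 held 1 of each, and that of Egln2 held 1 ACGTG and 3 GCGTG. Of 32851 promoter windows of this length, 16.6% held ACGTG, 28.2% GCGTG and 38.6% either one. Windows were found for 8 of the 9 genes. A match of letters describes the sequence and is not evidence of binding.

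Egln3 was the member with the greatest difference that was read above the filter level, a signal of 28.6 below which probe sets were not compared. Its brighter probe set, 1418649_at, gave signals of 2155.6, 1403.6 and 1021.0 in masseter 1, 2 and 3, against 303.6, 276.8 and 319.0 in tibialis anterior 1, 2 and 3. Every masseter array was above every tibialis array, and the lowest masseter signal was 3.20 times the highest tibialis signal. The means were 1527 ± 577 in masseter samples and 299.8 ± 21.4 in tibialis samples (SD, n = 3 each). On the log2 scale the difference was 2.28 ± 0.22 (masseter minus tibialis anterior throughout, ± the standard error, SE, of the limma fit), a 4.87-fold higher level in the masseter. In numbered pairs 1, 2 and 3 it was 2.83, 2.34 and 1.68. This was rank 27 from the top among 13576 probe sets, the value for which the gene was chosen.

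The other Egln3 probe set, 1418648_at, read the same direction with a smaller difference. Its signals were 302.0, 278.2 and 296.1 in the masseter arrays, against 131.7, 86.9 and 117.4 in the tibialis arrays. The ranges did not overlap, and the log2 difference was 1.40 ± 0.18, or 2.65-fold. The probe sets differed in where the samples spread. With the brighter one the highest masseter array was 2.11 times the lowest, against 1.15 times among tibialis arrays, whereas with the dimmer one the ratio was 1.09 among masseter arrays and 1.52 among tibialis arrays. Whether the probe sets differed in the size of the muscle difference was not tested.

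**Figure D1:**
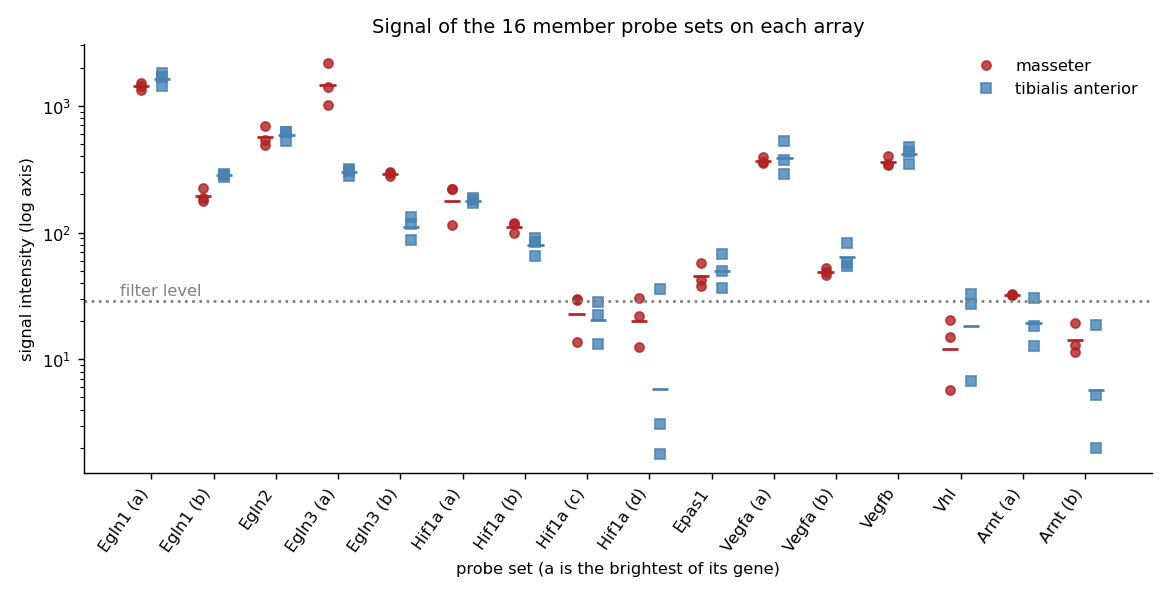
Signal intensity on a log axis of the 16 member probe sets, with 1 point per array (circles masseter, squares tibialis anterior, n = 3 each) and lines at the mean of the log2 signals. The letter a marks the brightest probe set of a gene, and the dotted line is the filter level of 28.6. Both Egln3 probe sets show 3 masseter points above the 3 tibialis points, and 5 probe sets of Hif1a, Vhl and Arnt lie around or under the filter level.

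Salivary transcripts were present in some of the masseter samples, and their level moved with the brighter Egln3 probe set among the masseter arrays. The summed signal of 8 salivary genes was 35745, 4587 and 3131 in masseter 1, 2 and 3, against 4316, 3133 and 2406 in tibialis anterior 1, 2 and 3. Masseter 3, whose salivary sum lay within the tibialis range and whose signal of Pip, a saliva protein, was 24.2, had Egln3 signals of 1021.0 and 296.1. In masseter 3 and tibialis anterior 1 much of the sum was the salivary gene Smr2, at 2123.3 and 2548.0. The mean of Smr2 was lower in the masseter. Pip read 8070.6 and 563.6 in masseter 1 and 2, against 72.4, 20.7 and 3.6 in the tibialis arrays. Without masseter 1, the Egln3 differences were 2.00 and 1.38 in a fit without the replicate block. For the Gapdh control, the ratio of 3′ to 5′ signal, a measure of how much of the transcript the labelling reached, was 2.66 ± 0.23 in masseter samples and 1.94 ± 0.11 in tibialis samples (SD, n = 3 each). That of the Actb control was 2.96 ± 0.34 in masseter samples and 2.70 ± 0.11 in tibialis samples. The part of salivary tissue or of this ratio in the Egln3 difference was not tested.

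The differences of the Egln3 paralogs were below 0. Egln1, the hydroxylase regarded as the main oxygen sensor in most cells, had signals of 1423.0, 1526.0 and 1334.4 in the masseter, against 1811.9, 1674.9 and 1426.6 in the tibialis anterior with its brighter probe set. These ranges overlapped, with a log2 difference of -0.19 ± 0.13. Its other probe set read 186.0, 178.3 and 223.4 in the masseter, against 273.5, 284.1 and 291.3 in the tibialis anterior. All 3 masseter arrays were lower there, by a log2 difference of -0.54 ± 0.17, and the direction was the same in all 3 pairs for both probe sets. Egln2, the remaining HIF prolyl hydroxylase, read 486.8, 533.0 and 688.3 in the masseter, against 625.9, 531.8 and 621.2 in the tibialis anterior. Its ranges overlapped and the log2 difference was -0.07 ± 0.16.

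The HIF subunits gave no common direction. Hif1a, the oxygen-regulated alpha subunit, had 4 probe sets, of which 2 were above the filter level and disagreed. The brighter of these read 221.7, 221.2 and 115.5 in the masseter, against 179.1, 185.7 and 170.8 in the tibialis anterior, and the difference was -0.00 ± 0.22. Masseter 3 stood apart from the other masseter arrays on this probe set, and without it the difference was 0.31, in a fit without the replicate block. The next read 116.1, 117.8 and 98.8 in the masseter, against 91.2, 83.9 and 65.5 in the tibialis anterior, with all masseter arrays higher and a difference of 0.48 ± 0.20. The other 2 Hif1a probe sets were under the filter level, with signals from 12.4 to 30.3 on masseter arrays and from 1.8 to 35.8 on tibialis arrays.

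Epas1, the HIF-2 alpha subunit that is abundant in vessel cells, was dim in both muscles. It read 41.9, 38.1 and 57.8 in the masseter, against 67.7, 36.7 and 50.1 in the tibialis anterior, with overlapping ranges and a log2 difference of -0.14 ± 0.32. Its direction turned with the array or pair left out. Over the alternatives run, the lowest difference was -0.37 without tibialis anterior 2, in a fit without the replicate block. The highest was 0.13 without numbered pair 1. Arnt, the constitutive partner of the alpha subunits, had 2 probe sets under the filter level. The brighter one read 32.3, 32.0 and 32.8 in the masseter, against 12.7, 30.2 and 18.4 in the tibialis anterior, with all masseter arrays higher. The other ran from 11.4 to 19.5 on masseter arrays and from 2.0 to 18.5 on tibialis arrays. Vhl, which marks hydroxylated subunits for breakdown, read 20.3, 15.0 and 5.7 in the masseter, against 27.4, 33.0 and 6.7 in the tibialis anterior. Signals this low lie near background. In the fit with no filter the differences were 0.75 ± 0.53 and 1.30 ± 0.89 for Arnt and -0.60 ± 0.63 for Vhl.

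The VEGF genes differed little between the muscles. Vegfa, the main vessel growth factor induced by HIF, had signals of 357.2, 356.7 and 394.2 in the masseter, against 525.1, 287.0 and 375.2 in the tibialis anterior with its brighter probe set. The tibialis arrays surrounded the masseter arrays, and the log2 difference was -0.06 ± 0.20. The dimmer Vegfa probe set read 48.9, 46.1 and 52.4 in the masseter, against 83.0, 57.1 and 54.2 in the tibialis anterior. All masseter arrays were lower, the highest of them at 52.4 against a lowest tibialis signal of 54.2, and the difference was -0.37 ± 0.28. Vegfb, a VEGF family ligand abundant in oxidative tissue, read 404.6, 338.6 and 349.5 in the masseter, against 428.8, 472.9 and 347.2 in the tibialis anterior. Its ranges overlapped, with a difference of -0.19 ± 0.17.

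**Figure D2:**
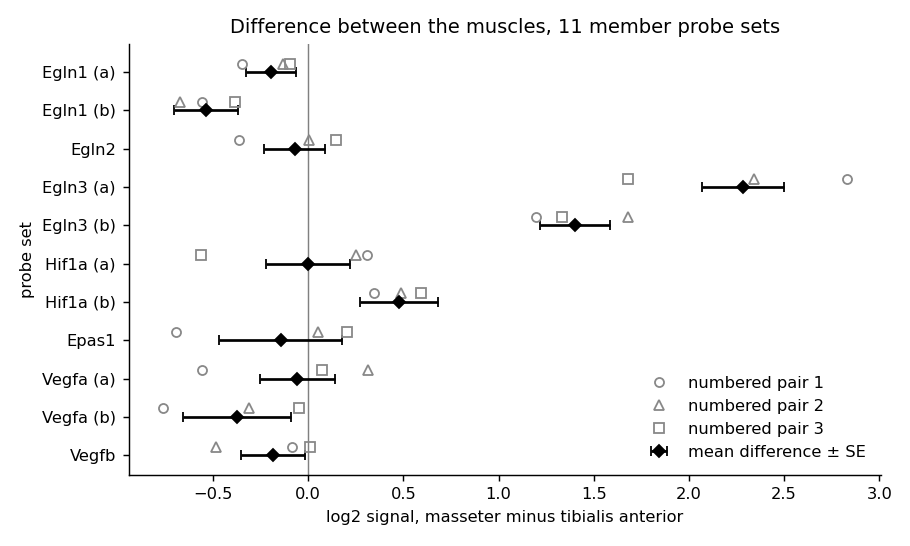
Log2 signal, masseter minus tibialis anterior, of the 11 member probe sets above the filter level. Diamonds with bars are the mean difference ± SE (n = 3 per muscle), and open symbols are the numbered pairs. The Egln3 probe sets sit at 2.28 and 1.40, and the other 9 lie between -0.54 and 0.48.

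In all, 11 of the 16 probe sets, from 7 genes, passed the filter on low signals. The 2 past the threshold, an adjusted p under 0.05 by limma, were those of Egln3, a count that the choice of Egln3 fixes. Among all 13576 probe sets compared, 1.18% were past it and 0.56% were past it with the masseter higher, and nothing is read from the members' count. Ranges that did not overlap were seen in 3 of the 11 with the masseter higher, against 9.21% of all probe sets, and in 2 of the 11 with the masseter lower, against 8.63%. Both Egln3 probe sets were among the 3 that were higher. The choice of Egln3 therefore fixes most of that count too, and nothing is read from it. The median log2 difference was -0.07 over the 11 and 0.02 over all probe sets.

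The genes nearest to Egln3 in pattern were found by the root mean square (RMS) difference from its brighter probe set over the 6 arrays, after each probe set's log2 signals were centred on their own mean. Nearest was Tm6sf1, a membrane protein, at an RMS of 0.39. It read 109.0, 118.2 and 98.4 in the masseter, against 26.3, 28.1 and 38.7 in the tibialis anterior. Next were Ifi27l2a, an interferon-induced gene, at 0.40, and Smtnl1, a smoothelin-like protein of muscle, at 0.40, followed by Gbp6, a guanylate-binding protein, at 0.41 and the B cell adaptor Blnk at 0.47. Like Egln3, all but Tm6sf1 were highest in masseter 1, where Ifi27l2a read 480.5, Gbp6 271.8 and Blnk 107.2. The other masseter arrays read 158.3 and 172.3 for Ifi27l2a, 94.1 and 94.4 for Gbp6 and 84.5 and 82.5 for Blnk. Smtnl1 read 1378.6, 1322.8 and 1149.6 in the masseter, against 163.6, 236.2 and 365.8 in the tibialis anterior. Likeness over 6 arrays of 2 muscles is a description, and it is dominated by the difference between the muscles.

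**Figure D3:**
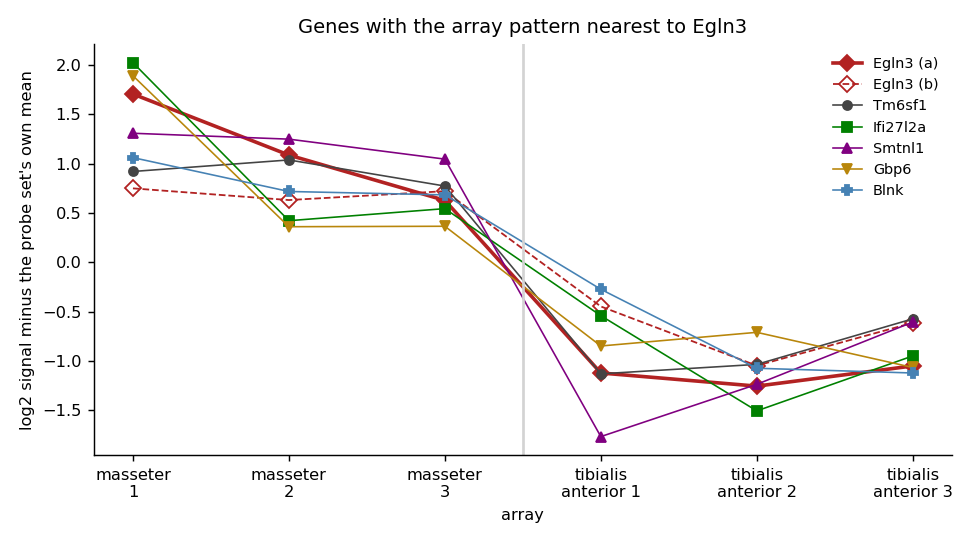
Log2 signal minus the probe set's own mean on each of the 6 arrays, for both Egln3 probe sets (diamonds, solid for the brighter and dashed for the dimmer) and the 5 genes nearest to the brighter one. All lines lie above 0 in the 3 masseter arrays and below 0 in the 3 tibialis arrays.

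Genes listed as HIF targets were compared by their brightest probe set. Of 54 listed targets outside the members, 45 had a probe set with that symbol alone and 41 were above the filter level. By limma 0 were higher, 1 was lower and 40 did not pass, or 2.44% past the threshold. Of the 8316 genes compared by their brightest probe set, 1.37% were past it, 0.709% higher and 0.661% lower in the masseter. The targets' limma counts are near these shares, and nothing is read from them. At an unadjusted p under 0.05 there were 2 higher and 9 lower, together 11 of the 41, against 13.9% of all genes. Paired SAM called 0 of the 41, against 0.501% of all probe sets compared. All masseter arrays lay under all tibialis arrays for 10 of the 41, against 9.16% of all genes, and above them for 2, against 9.82%. The median difference of the targets was -0.18, and that of all genes 0.02. The gene that passed was Gbe1, the glycogen branching enzyme, with signals of 205.4, 282.6 and 216.6 in the masseter, against 434.8, 453.1 and 408.3 in the tibialis anterior. It was lower in all 3 masseter arrays, by a log2 difference of -0.89 ± 0.16 (adjusted p = 0.0491). That call ended without numbered pair 1, 2 or 3 (adjusted p from 0.0945 to 0.115). It also ended with a log2(signal + 16) scale and with quantile normalization (adjusted p = 0.0508 and 0.0531).

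Among the targets were 9 measured genes of glycolysis and glycogen, a grouping made after the values were seen, so their count is only a description. Of these, 8 had a difference below 0. The ranges did not overlap for 5 with the masseter lower, against 9.16% of all genes, and for 1 with it higher, against 9.82%. Ldha, which makes lactate, had signals of 7605.8, 9354.8 and 11012.7 in the masseter, against 16501.4, 14307.0 and 13826.1 in the tibialis anterior (-0.69 ± 0.15, adjusted p = 0.0941). Pgk1, phosphoglycerate kinase, had means of 5257 ± 857 in masseter samples and 8365 ± 462 in tibialis samples (SD, n = 3 each; -0.68 ± 0.14, adjusted p = 0.0727). Tpi1, triose phosphate isomerase, and Aldoa, muscle aldolase, differed by -0.58 ± 0.15 and -0.23 ± 0.12 (adjusted p = 0.13 and 0.482), and Aldoa was read near the top of the signal scale, where a difference can be understated. Pfkfb3, which makes the activator of phosphofructokinase, went the other way, with 184.1, 179.8 and 183.0 in the masseter, against 147.1, 128.6 and 93.6 in the tibialis anterior (0.59 ± 0.20, adjusted p = 0.251).

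Targets with other roles went in both directions without passing. Slc16a3, the lactate exporter MCT4, had the lowest difference, with 114.6, 127.1 and 133.6 in the masseter, against 284.7, 178.6 and 366.4 in the tibialis anterior (-1.09 ± 0.23, adjusted p = 0.0724). Pdk1, which holds pyruvate back from mitochondria, had means of 117.2 ± 34.2 in masseter samples and 200.0 ± 32.9 in tibialis samples (SD, n = 3 each; -0.80 ± 0.21, adjusted p = 0.133). Ak4, a mitochondrial adenylate kinase, had the highest, with 131.7, 143.5 and 140.0 in the masseter, against 79.1, 81.2 and 70.1 in the tibialis anterior (0.85 ± 0.20, adjusted p = 0.1). The classical targets Slc2a1 (glucose transporter 1), Bnip3 (mitophagy) and Ddit4 (an inhibitor of mTOR signalling) had overlapping ranges, with differences of -0.34 ± 0.20, -0.18 ± 0.15 and -0.74 ± 0.28. In fits without the replicate block, the Ddit4 value was -0.07 without masseter 1 and -1.30 without masseter 2. With the block, it was -0.47, -1.15 and -0.60 without numbered pair 1, 2 and 3. Its SE over all arrays was 0.56 without the replicate block. The differences of Adm, Car9, Kdm3a and P4ha1 lay between -0.29 and -0.01, each with overlapping ranges, and those of Adm, Car9 and Kdm3a were above 0 in some fits that left out an array or a pair. Adm and Car9, which encode adrenomedullin and carbonic anhydrase 9, were dim, with means of 48.6 and 55.1 in masseter samples, against 57.4 and 56.5 in tibialis samples.

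**Figure D4:**
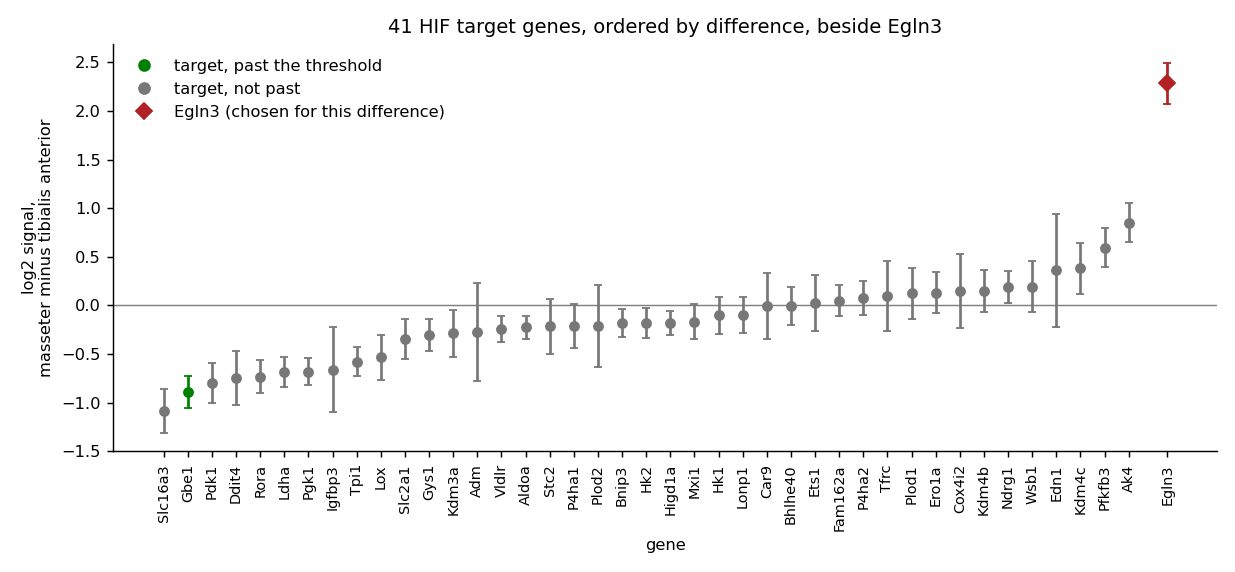
Log2 signal, masseter minus tibialis anterior, with SE (n = 3 per muscle), of the 41 HIF target genes above the filter level in order of their difference, beside the brighter Egln3 probe set at right. The targets run from -1.09 (Slc16a3) to 0.85 (Ak4), Gbe1 alone is past the threshold, and Egln3 stands at 2.28.

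Other parts of the oxygen-sensing machinery were compared in the same way. Of 21 listed genes, 14 had a probe set with that symbol alone, and all 14 were above the filter level. Limma called 0 of the 14, against 1.37% of all genes, and paired SAM 0, against 0.501% of all probe sets compared. By limma 1 had an unadjusted p under 0.05, against 13.9% of all genes. Calls this close to those shares say nothing about the list. The median difference was -0.06. All masseter arrays lay under all tibialis arrays for 4 of the 14, against 9.16% of all genes. They lay above them for 1, against 9.82%. Hif3a, an alpha subunit that can restrain HIF activity, read 89.4, 90.6 and 50.3 in the masseter, against 119.3, 94.5 and 99.5 in the tibialis anterior (-0.49 ± 0.24, adjusted p = 0.454). The VHL ligase partners Eloc, Elob and Cul2 differed by -0.27 ± 0.14, 0.02 ± 0.13 and 0.25 ± 0.15. The succinate dehydrogenase subunit Sdhb, whose substrate succinate is known to inhibit the EGLN enzymes, was lower in all masseter arrays, with means of 5051 ± 558 in masseter samples and 7466 ± 366 in tibialis samples (SD, n = 3 each; -0.57 ± 0.12, adjusted p = 0.0787). The fumarase gene Fh1 differed by 0.01 ± 0.13.

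Receptors and relatives of the VEGF genes were compared as well. Of 9 measured genes, limma called 0, against 1.37% of all genes, and paired SAM 0, against 0.501% of all probe sets compared. At an unadjusted p under 0.05 there was 1, against 13.9% of all genes, and the median difference was -0.01. Counts this near the shares over all genes are no result about the list. Kdr, the main signalling receptor of VEGFA, read 328.3, 209.1 and 143.4 in the masseter, against 413.8, 191.9 and 268.9 in the tibialis anterior (-0.37 ± 0.22, adjusted p = 0.54). Flt1, which binds VEGFA and VEGFB, and the co-receptor Nrp1 differed by -0.26 ± 0.19 and -0.01 ± 0.19. Of 9 measured endothelial markers, 0 passed by limma and 1 had an unadjusted p under 0.05, 7 had a difference below 0, and 2 had all masseter arrays lower, against 9.16% of all genes. Their median difference was -0.19, against 0.02 over all genes, and their summed signal ran from 1454 to 1549 on masseter arrays and from 1501 to 1917 on tibialis arrays. The part of the endothelial markers in the receptor values was not tested. In whole muscle, fewer cells of a type and less transcript per cell cannot be told apart.

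The arrays read as skeletal muscle, and the trimmed mean signal was 150.1 on each. Muscle markers were bright in all 6 samples, and Mb and Acta1 differed by 0.04 and -0.09. Both were read near the top of the signal scale, where a difference can be understated. Of the 9 lists of cell type markers, salivary genes had 2 of 6 measured members past the threshold (Pip and Smr3a). Adipocyte genes had 1 of 4 (Adipoq). All were higher in the masseter, where 1.37% of all genes were past the threshold in either direction. The other 7 had 0 past it by limma. At an unadjusted p under 0.05 by limma, against 13.9% of all genes, the lists differed. Salivary genes had 5 of 6, with 4 higher and 1 lower in the masseter, and adipocyte genes 3 of 4, all higher. There were 1 of 8 measured muscle markers, 1 of 9 for endothelium and 1 of 6 for immune cells. Smooth muscle and fibroblasts had 2 of 6 each, Schwann cells 2 of 3 and erythroid cells 1 of 1. The brightest markers of these lists differed by -0.61 and -0.32 (Vwf and Esam, endothelium), -0.44 and -0.47 (Rgs5 and Acta2, smooth muscle), 0.80 and 0.61 (Mbp and Pmp22, Schwann cells), 0.16 and 0.26 (Dcn and Fmod, fibroblasts), -0.13 and 0.47 (Cd74 and Csf1r, immune cells) and 0.74 (Alas2, erythroid). Among salivary and adipocyte genes the brightest, Smr2, Amy1, Fabp4 and Adipoq, differed by -0.64, 1.87, 0.27 and 1.26. The part of these other tissues in the values of the hypoxia genes was not tested.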

How the data were processed

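Per the labels' protocols, biotin-labelled cRNA made from total RNA was hybridised, with 1 array per sample. The values deposited by the authors are linear signal intensities, 1 for each probe set on each array. MAS5 and GCOS are named in the submitters' processing notes without settings. The 2% trimmed mean was alike on all arrays, so no scaling was added. Detection calls were not used here.

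Gene names came from the platform annotation. Of 22690 probe sets, 64 were controls, 20380 had 1 symbol, 691 several and 1555 none. Signals were floored at 1 before log2. Probe sets whose mean log2 signal reached the 40th percentile of the 22626 others than controls (4.84, a signal of 28.6) were kept, 13576 in all, from 8316 genes. The comparison was a two-sided limma 3.58.1 fit (R 4.3.3; lmFit, then eBayes with its trend option) that held the replicate number as a block because the design text describes paired comparisons, and with Benjamini-Hochberg adjustment over all kept probe sets. For pathway and marker genes the brightest probe set stood for the gene.

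The members, the 3 pathway lists, the 9 marker lists and the alternatives were chosen with earlier results of these data known. The rule for named genes took all members, pathway list genes past the threshold, the 3 brightest of each pathway list, the 2 brightest of each marker list and the 5 nearest to Egln3. It also took Slc2a1, Pdk1, Bnip3, Ddit4, Adm, Ldha, Car9, Kdm3a, P4ha1, Ankrd37, Pfkfb3, Hif3a, Hif1an, Kdr and Flt1. Of these, Ankrd37 and Hif1an had no probe set with that symbol alone. Other genes were chosen after their values were seen. When 200 changes were simulated among the 13576 probe sets, 3 arrays against 3, 53% of changes of 1 on the log2 scale, 91% of changes of 2 and 97% of changes of 3 were recovered, with 13 false calls. The simulated noise was normal, independent between probe sets, and took its SD from the same limma fit with trend. These shares therefore rest on the assumptions of that fit, and noise shared between probe sets was not simulated. Precision is limited by the number of arrays.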

Additional observations from a re-analysis of the deposited data

How the results depend on the processing

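The brighter Egln3 probe set stayed between 2.00 and 2.59 over 16 alternatives, and the dimmer one between 1.23 and 1.53. Both Egln1 probe sets and Vegfb stayed below 0 in all 16, the dimmer Vegfa probe set in the 15 that kept it, and the second Hif1a probe set stayed above 0, moving by over 1 SD of the pair differences only without tibialis anterior 3 (0.34). Egln2 and the brighter Vegfa probe set were above 0 in 2 of 16, Epas1 in 2 of 15 and the brightest Hif1a probe set in 5 of 16. Changing only the block, the eBayes trend, the filter or the test to paired SAM cannot move a difference in this balanced design. Those alternatives are included in these counts, although they bear on the SE and the calls alone. With eBayes without trend, 13 probe sets of the whole array passed (0.0958% of those compared), 0 of the members and 0 of the HIF targets. With paired SAM, 68 probe sets passed (0.501%), 2 of the members and 0 of the HIF targets. HIF targets past the threshold also numbered 0 with log2(signal + 16) and with quantile normalization, and 2 (Gbe1 and Slc16a3) with the mean over probe sets. Leaving out numbered pairs or single arrays gave 45 to 173 probe sets (0.331% to 1.27%). Of the members 1 to 2 passed, with 1 only without masseter 2, and of the HIF targets 0 to 1. The single target was Slc16a3 without pair 2 or without tibialis anterior 2, and Ldha without pair 3 (adjusted p = 0.0487). The lists of oxygen-sensing machinery and of VEGF receptors had 0 past the threshold in every alternative run. Where so small a share of the whole array passes, counts of 0 or 1 are no result about a list.

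Without the replicate block, 138 probe sets passed, both Egln3 probe sets and Gbe1 among them. Deviations from the group means correlated at 0.04, 0.15 and 0.10 within numbered pairs 1, 2 and 3. Between muscles, arrays of different number correlated at -0.16 to 0.05. Of the 6 arrays, 4 correlated best with the array of their own number. So few arrays cannot settle whether the numbers mark shared animals. Egln3 was chosen by its difference, so its counts here describe the settings only. Signals near background limit what can be said of Arnt, Vhl and the dimmer Hif1a probe sets.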
